A study of Homo sapiens with 2 samples.

Results

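Antisense long non-coding RNA genes are transcribed from the strand opposite a protein-coding or other sense gene, and by convention carry that gene's symbol followed by -AS and a digit. On the array analysed here 480 of 14884 named genes had such a symbol, and all 480 were taken, whatever their signal. RefSeq classes 474 of them as lncRNA and 6 as antisense RNA. For 474 members RefSeq holds a gene of the symbol before -AS, and these are 456 different sense genes, 16 of which have more than 1 antisense member. For the other 6, such as HOXA-AS3, it holds none. A sense gene is called the partner below and is not itself a member.

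RNA came from MDA-MB-231, an established line of mesenchymal-like human breast cancer cells. Per the labels, cells received either a miR-544 antagomir, which is an oligonucleotide that blocks this microRNA, or Compound 1, and 24 hours later went into hypoxia at below 1% oxygen for 5 days. The design text speaks of 3 pooled samples, each treatment has 1 array, and no untreated or normoxic array was analysed here. No dose and no normalization method was given in the sources used here. Both groups share the cell line and the hypoxia, so a difference sets the antagomir against Compound 1 and neither against untreated cells.

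Antisense transcripts can act on the sense gene in cis, through promoter interference, recruitment of chromatin regulators or pairing with the sense RNA, and some act in trans on other genes. Many begin near the start of the sense gene and run away from it or across it, so that both share a promoter region, whereas others begin inside the gene. They are mostly less abundant than messenger RNAs, and the nuclear exosome degrades many of them soon after synthesis. Several, such as CDKN2B-AS1 (also called ANRIL) and AFAP1-AS1, are known from studies of cancer cells.

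The promoter windows of 5 members show antisense and sense starts that lie close together. Each is an antisense gene that the naming rule picked, whose partner starts inside its window, and whose signal and partner's signal both reached the level used for comparison below. The windows are from RefSeq on GRCh38.p14, run 5′ to 3′ on the member's strand from 250 bases before to 50 bases after its start, and are in lower case. Capitals mark the stretch from the partner's start to the member's start. DIAPH3-AS1 lies at chr13:60013053-60013352 on the plus strand, LPP-AS2 at chr3:188154039-188154338 on the minus strand, RBM26-AS1 at chr13:79406059-79406358 on the plus strand, ZEB1-AS1 at chr10:31320398-31320697 on the minus strand, and ZNF566-AS1 at chr19:36489377-36489676 on the plus strand.
DIAPH3-AS1: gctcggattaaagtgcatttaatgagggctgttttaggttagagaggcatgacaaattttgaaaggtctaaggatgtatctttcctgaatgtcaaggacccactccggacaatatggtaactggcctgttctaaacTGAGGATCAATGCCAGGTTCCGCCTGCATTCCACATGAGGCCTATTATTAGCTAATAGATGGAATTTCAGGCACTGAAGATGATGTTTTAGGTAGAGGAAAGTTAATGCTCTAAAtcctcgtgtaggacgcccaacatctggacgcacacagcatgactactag
LPP-AS2: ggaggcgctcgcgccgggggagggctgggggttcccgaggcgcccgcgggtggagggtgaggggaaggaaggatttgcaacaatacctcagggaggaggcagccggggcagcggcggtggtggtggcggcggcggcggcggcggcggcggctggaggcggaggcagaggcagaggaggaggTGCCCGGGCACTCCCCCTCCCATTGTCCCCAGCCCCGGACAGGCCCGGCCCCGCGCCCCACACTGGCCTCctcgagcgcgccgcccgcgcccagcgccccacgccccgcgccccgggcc
RBM26-AS1: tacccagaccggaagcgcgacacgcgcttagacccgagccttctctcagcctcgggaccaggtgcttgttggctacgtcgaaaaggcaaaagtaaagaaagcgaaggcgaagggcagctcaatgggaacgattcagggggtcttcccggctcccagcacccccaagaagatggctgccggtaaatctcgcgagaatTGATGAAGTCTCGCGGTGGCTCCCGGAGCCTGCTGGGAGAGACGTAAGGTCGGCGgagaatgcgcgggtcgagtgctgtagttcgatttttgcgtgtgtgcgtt
ZEB1-AS1: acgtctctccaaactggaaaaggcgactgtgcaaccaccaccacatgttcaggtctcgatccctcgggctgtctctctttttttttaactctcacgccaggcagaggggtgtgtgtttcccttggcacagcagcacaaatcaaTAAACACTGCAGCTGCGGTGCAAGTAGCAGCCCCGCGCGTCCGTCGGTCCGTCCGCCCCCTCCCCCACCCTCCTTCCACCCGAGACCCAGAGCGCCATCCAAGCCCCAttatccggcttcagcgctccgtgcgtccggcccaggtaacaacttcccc
ZNF566-AS1: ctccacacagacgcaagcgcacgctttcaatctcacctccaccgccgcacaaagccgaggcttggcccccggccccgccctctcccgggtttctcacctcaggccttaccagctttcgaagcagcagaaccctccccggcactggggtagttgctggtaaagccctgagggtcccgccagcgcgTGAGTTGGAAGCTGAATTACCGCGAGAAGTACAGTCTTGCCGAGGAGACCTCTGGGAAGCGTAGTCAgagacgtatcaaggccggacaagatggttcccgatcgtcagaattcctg

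The starts of antisense and sense gene lay 54 bases apart for RBM26-AS1, 66 for ZNF566-AS1, 69 for LPP-AS2, 107 for ZEB1-AS1 and 114 for DIAPH3-AS1. The GC content of the windows was 79.3% for LPP-AS2, 60.7% for ZNF566-AS1, 60.0% for ZEB1-AS1, 58.7% for RBM26-AS1 and 43.7% for DIAPH3-AS1. DIAPH3-AS1 also had the fewest CG dinucleotides, 6 against 36 in LPP-AS2. RefSeq lists several starts for some genes, and the nearest pair was used. The partner's start is the outer end of its gene for RBM26-AS1 and ZNF566-AS1, and lies 1136 bases inside the gene for LPP-AS2 and 2137 for ZEB1-AS1. For DIAPH3-AS1 it is an internal start 150739 bases inside DIAPH3, and this antisense gene lies wholly inside its partner.

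The deposited values are log2 signals, 1 per transcript cluster (a probe group for 1 transcript region) and array. The log base is not stated and is taken from the range of the values. Where a gene has a pair of levels, the antagomir array comes first and the compound 1 array second. Across the members the level ran from 1.97 to 9.20 (median 5.40) on the antagomir array, and from 2.23 to 9.14 (median 5.44) on that of compound 1. A gene counted as measured, or entering, when its higher value reached 5.60, the 50th percentile of cluster mean levels. This held for 231 members (48.1%), of which 197 reached it on both arrays, 22 on the compound 1 array only and 12 on the antagomir array only. The other 249 members had levels up to 5.56 and 5.57 on the respective arrays, and 49 of all members were under 4 on both. Entry depends on each cluster's probes as well as on its RNA, so an unmeasured member is not shown to be silent.

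Fewer members entered than genes overall (73.1%) or protein-coding genes (80.4%). Among other long non-coding genes the share was 44.1% of 928. It was 35.8% for the 458 intergenic LINC genes and 63.6% for the 99 -DT genes, which are divergent transcripts. Of the 9 antisense genes whose symbol ends in -AS with no digit, just outside the naming rule, 4 entered. Within the members, 220 of the 431 with the suffix -AS1 entered, 9 of 32 with -AS2 and 2 of 17 with a higher number.

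Markers of the line were set beside its label, and some luminal genes went against it. VIM, CD44, AXL, MSN and LOX, known to be high in the line, lay between 9.04 and 12.8 on both arrays, and the oestrogen and progesterone receptor genes ESR1 and PGR were under the entry level. The luminal genes EPCAM (6.91 and 7.05) and GATA3 (7.27 and 7.44) were above it, and FOXA1 (5.41 and 5.66) was above it on 1 array. PECAM1 and ALB, markers of endothelium and liver, were under it, and the other listed markers were not named on the array.

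The antisense genes differed little between the treatments. Each difference below is compound 1 minus antagomir in log2, and a single array for either treatment gives neither a replicate error nor a test. A lower signal cannot tell less RNA per cell from fewer cells holding it. Of the 231 entering members 120 were higher on the compound 1 array and 104 lower, and 7 had identical values on both arrays. Among all 10887 measured genes 41.7% were higher and 57.2% lower. The median difference of the members was 0.015 with quartiles of -0.10 and 0.15. The median was -0.035 over all measured genes, -0.041 for protein-coding genes and 0.00 for LINC genes. After centring the medians were -0.014 for the members and -0.064 over all measured genes. They were 0.014 and 0.0055 after quantile normalization, and 0.0030 and -0.0033 after cyclic loess. Centring each array on its median left 126 members lower, quantile normalization 108 and cyclic loess 114, so which sign is more common among the members turns with centring.

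Past 1.5-fold, 1 member was higher on the compound 1 array (0.433%) and 0 were lower. Over all measured genes 0.312% were higher and 0.551% lower by this margin. Past 1.3-fold there were 3 higher members (1.299%) and 9 lower ones (3.90%), beside 2.09% and 3.27% of all measured genes. Past 2-fold there were 0 members, beside 0.0551% of all measured genes. These shares are near those of all measured genes. Among the 409 measured long non-coding genes that are not members, 2.20% were past 1.5-fold and 10.3% past 1.3-fold in either direction. For the members these shares were 0.433% and 5.19%, and the difference was not tested.

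**Figure D1:**
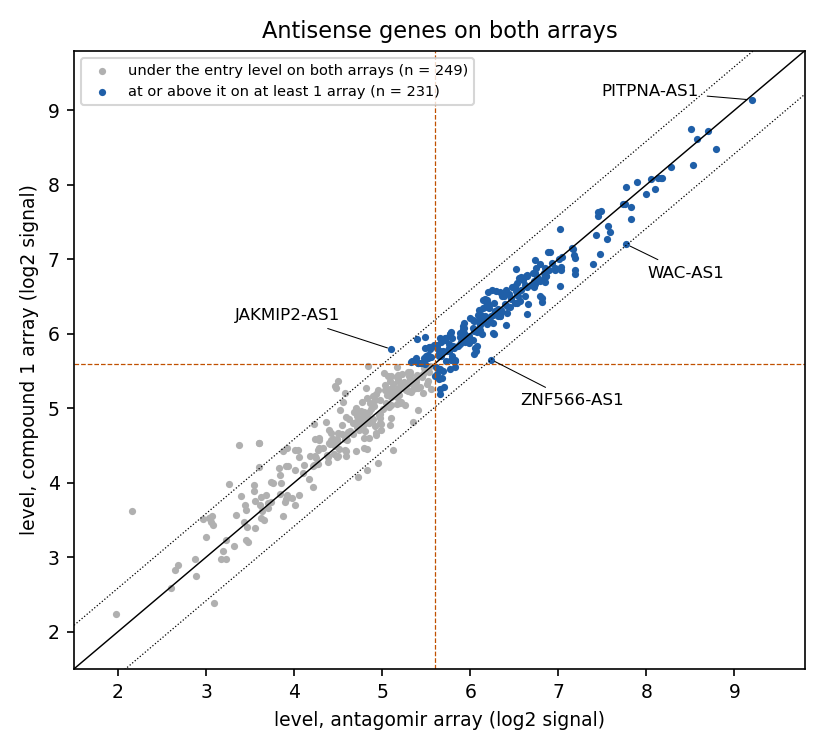
Level of each of the 480 antisense genes on the antagomir array (x axis) and the compound 1 array (y axis), both in log2 signal. Blue points are the 231 members that reached the entry level of 5.60 (dashed lines) on at least 1 array, grey points the 249 others, the solid line is equality and the dotted lines mark 1.5-fold. JAKMIP2-AS1 is the only blue point outside the dotted lines, and the grey points at low signal scatter more widely.

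JAKMIP2-AS1, beside the gene of a protein that binds Janus kinases and microtubules, was the member past 1.5-fold. Its level was 5.11, short of entry, and 5.79, a 1.61-fold difference (0.69). Centring gave 0.66, quantile normalization 0.65 and cyclic loess 0.63. Its partner JAKMIP2 did not enter, at 3.94 and 3.90.

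Several further members lay just inside that margin. All those of this and the next paragraph but ZNF566-AS1 were picked after their values had been seen. ZNF566-AS1, beside a zinc finger gene, was at 6.24 and 5.65 (-0.58), just short of 1.5-fold. Centring, quantile normalization and cyclic loess each took it past 1.5-fold, to -0.61, -0.61 and -0.63. WAC-AS1, beside the gene of an adaptor of histone H2B ubiquitination, was at 7.77 and 7.20 (-0.57), and at -0.60 after centring. RAMP2-AS1, beside a subunit gene of the adrenomedullin receptor, was at 5.40 and 5.93 (0.53), and only the second value reached entry.

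Among the lower members with both values above the entry level were 3 others. SLCO4A1-AS1, beside an organic anion transporter gene, was at 7.40 and 6.94. DLGAP1-AS1, beside a gene for a synaptic scaffold protein, was at 7.47 and 7.08. THAP9-AS1, beside a gene derived from a transposase, was at 7.20 and 6.81. All 3 lie within 1.5-fold, and each was lower under every scaling tried.

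The members with the highest signals were nearly level between the arrays in most cases. PITPNA-AS1, beside a phosphatidylinositol transfer protein gene, was at 9.20 and 9.14. FGD5-AS1, beside a gene for an activator of Cdc42, was at 8.70 and 8.73. AFAP1-AS1, beside the gene of an actin filament-associated protein, was at 8.57 and 8.62. SVIL-AS1 (8.29 and 8.24), HLA-F-AS1 (8.18 and 8.09), ASB16-AS1 (8.16 and 8.10) and PRRT3-AS1 (8.13 and 8.09) were each within 0.10 in log2. The signs of PITPNA-AS1, SVIL-AS1, ASB16-AS1 and PRRT3-AS1 turned after quantile normalization, and that of FGD5-AS1 after centring.

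The other 3 of the 10 highest differed more. LOXL1-AS1, beside the gene of an enzyme that crosslinks elastin and collagen, was lower with compound 1, at 8.80 and 8.49 (-0.31). TMPO-AS1, beside the gene of the lamina-associated polypeptide 2 of the nuclear envelope, was also lower, at 8.53 and 8.27 (-0.27). PCBP3-AS1, beside a poly(rC)-binding protein gene, was higher, at 8.51 and 8.75 (0.25). These signs held under each of the 3 scalings.

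**Figure D2:**
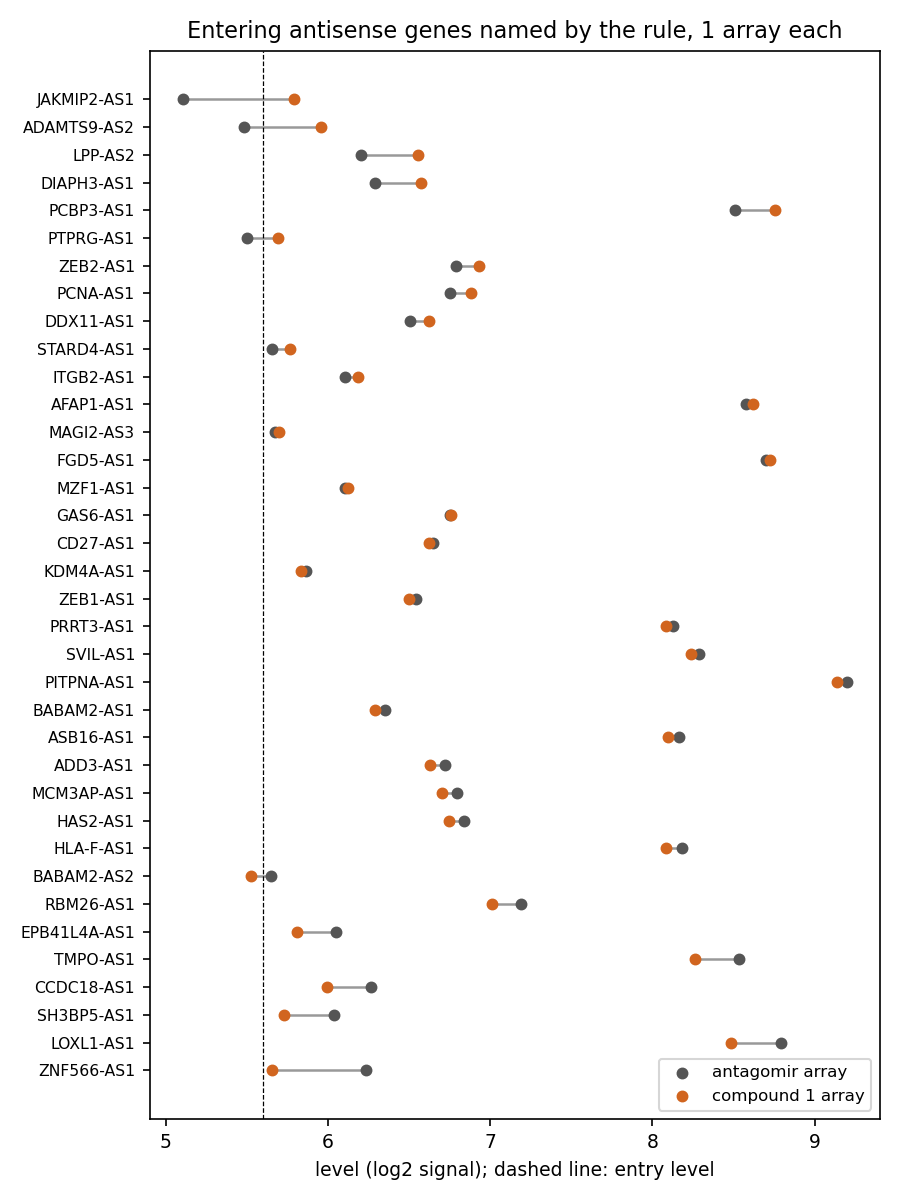
Levels (x axis, log2 signal) of the entering antisense genes that the naming rule picked, ordered by difference, with 1 grey point for the antagomir array and 1 orange point for the compound 1 array. The dashed line is the entry level of 5.60. ZNF566-AS1, at the bottom, has the largest shift to lower signal on the compound 1 array, JAKMIP2-AS1, at the top, the largest to higher, and most members between have points that touch or lie close.

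Antisense genes with a described role in cancer or development formed a list of 36, of which 24 were on the array and 17 entered. ADAMTS9-AS2, beside a metalloprotease gene, had the largest difference among these 17, at 5.48 and 5.96 (0.48). Only the second value reached the entry level. LOXL1-AS1 and TMPO-AS1, above, came next. EPB41L4A-AS1 was at 6.05 and 5.81 (-0.24) while its partner EPB41L4A, a gene of the band 4.1 family, differed the other way, by 0.23 to a level of 6.73.

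ZEB1-AS1, beside the gene of a repressor that drives epithelial-mesenchymal transition, was at 6.54 and 6.501, and ZEB1 was at 8.20 and 8.18. ZEB2-AS1, beside a gene of the same family, was listed at 6.79 and 6.93. That value comes from a cluster in the number block of the opposite strand, described below. Its cluster in the block of its own strand did not enter. HAS2-AS1, beside the hyaluronan synthase gene, was at 6.84 and 6.74, and HAS2 was lower too, at 10.95 and 10.64. GAS6-AS1, beside the gene of the ligand of AXL, was at 6.75 and 6.76, while GAS6 was at 9.62 and 9.44.

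PCNA-AS1, which lies inside the gene of the DNA polymerase clamp, was higher with compound 1, at 6.75 and 6.88, whereas PCNA was lower, at 9.39 and 9.16. Of the other entering list members, DDX11-AS1 (0.12), PTPRG-AS1 (0.19), ITGB2-AS1 (0.076) and MAGI2-AS3 (0.025) were higher by the log2 differences given. MCM3AP-AS1 (-0.092), KDM4A-AS1 (-0.033) and CD27-AS1 (-0.022) were lower. The sign of MAGI2-AS3 turned under each scaling, and none of these 7 was past 1.3-fold.

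The remaining 7 list members did not enter. CDKN2B-AS1, which recruits Polycomb proteins to the locus of the cell cycle inhibitor p15, was at 4.22 and 4.23. EGFR-AS1 was at 4.76 and 4.97, beside its partner EGFR at 11.02 and 11.04. GATA3-AS1 was at 5.12 and 5.16, RBM5-AS1 at 5.10 and 4.87, HOXA-AS3 at 5.43 and 5.29, DLX6-AS1 at 4.50 and 4.45, and HAND2-AS1 at 4.37 on both.

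Differences among the members followed the level of the signal, as they did in other genes. Of the 82 members with a mean level up to 6, 49 were higher on the compound 1 array, with a median of 0.064, and the other 1335 measured genes at that level had a median of 0.070. This band holds every member that entered through 1 array alone, 22 through compound 1 and 12 through the antagomir, so its median rests in part on the entry rule. With both arrays at the entry level the medians were 0.027 for 48 members and 0.054 for 853 other genes. Between 6 and 6.5 the medians were 0.027 for 61 members and 0.033 for other genes, and between 6.5 and 7 they were -0.0085 for 49 members and 0.00 for other genes. From 7.5 upward 23 members had a median of -0.044 and other genes -0.073. Between 7 and 7.5 the 16 members had a median of -0.15 with 13 lower, beside -0.043 for other genes. WAC-AS1, SLCO4A1-AS1, DLGAP1-AS1 and THAP9-AS1 all lie in this range.

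**Figure D3:**
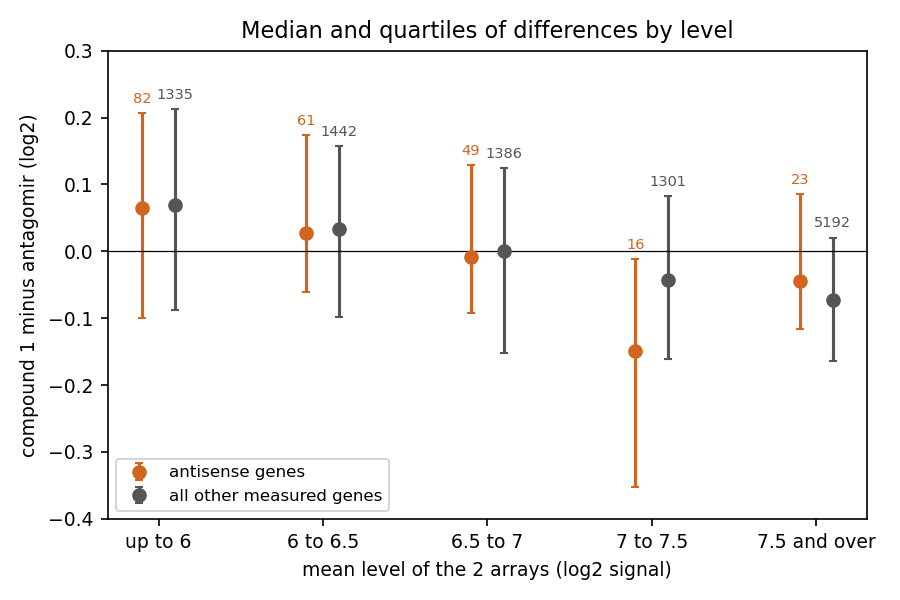
Median difference between the arrays (y axis, compound 1 minus antagomir in log2) by mean level (x axis, log2 signal) for entering antisense genes (orange) and all other measured genes (grey). Points are medians, bars run from the lower to the upper quartile over genes and are no replicate error, and numbers are gene counts. Both groups go from positive medians at low signal to negative ones at high signal, and the 16 antisense genes between 7 and 7.5 are lowest at -0.15.

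The position of an antisense gene relative to its partner went with whether it entered. For 325 of the 474 members with a partner in RefSeq the strand of both genes was in the promoter table, always opposite. Of the 106 members that lie wholly inside the partner, 36 entered (34.0%). Among the 109 whose 5′ end overlaps the partner's 5′ end 61 entered (56.0%), and among the 51 that overlap at the 3′ ends 31 did (60.8%). Of the 45 divergent members that do not overlap their partner 21 entered (46.7%). Another 141 members overlap a partner but have no strand in the table, and 66 of them entered (46.8%). These shares describe 1 pair of arrays and hold no test.

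**Figure D4:**
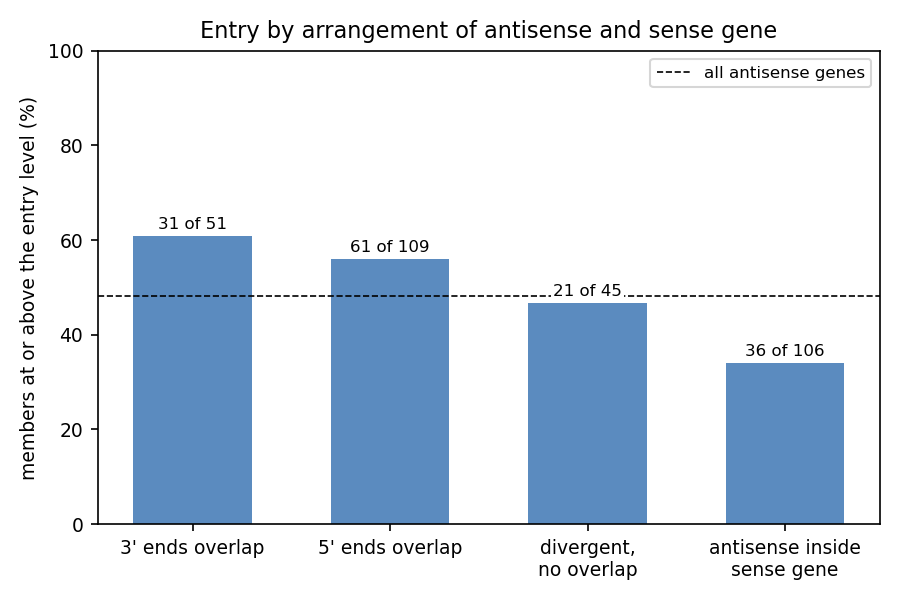
Share of antisense genes that reached the entry level of 5.60 on at least 1 array (y axis, percent), by how antisense and sense gene lie to each other in RefSeq (x axis). Labels give the counts, the dashed line is the share of all 480 antisense genes (48.1%), and the 4 largest arrangements of members with known strand are drawn. The bar for antisense genes inside the sense gene is the lowest.

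Among these 4 arrangements members inside their partner also had the highest median difference, 0.11 over 36 genes, with 23 higher and 12 lower. Quantile normalization gave 0.099 and cyclic loess 0.079. The medians were 0.00 where 5′ ends overlap, -0.011 where 3′ ends overlap and -0.042 for the divergent members. Under a mean level of 6.5 the medians were 0.15 for 21 inside members, 0.021 for 38 with overlapping 5′ ends, 0.00 for 17 with overlapping 3′ ends and -0.0059 for 8 divergent ones. At 6.5 or more they were -0.018 for 15 inside members, -0.040 for 23, -0.029 for 14 and -0.14 for 13 in the same order. The inside members thus had the highest median in both bands, but at 6.5 or more their -0.018 lay close to the -0.029 for overlapping 3′ ends. Their medians of 0.11 and 0.15 include members that did not reach the entry level on both arrays, so these rest in part on the entry rule. The medians by arrangement were not worked out again for members with both arrays at that level. No test of a difference between arrangements was made.

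Promoter windows differed with arrangement in base composition. RefSeq windows were matched for 369 members, which have 420 of them, and 111 members had none in the table. The median GC content was 64.7% in windows of entering members and 54.2% in those of the others, beside 58.7% over all 35116 windows. Median counts of the CG dinucleotide were 22.5, 8 and 14 in the same order. Windows of members that lie inside the partner had a median GC content of 48.7% with 4 CG dinucleotides, and those of members that start within 300 bases of the partner 68.0% with 31.

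Because all cells were hypoxic, the windows were searched on both strands for ACGTG or GCGTG, the core bound by hypoxia-inducible factors. It occurred in 61.1% of entering members' windows, 48.5% of the others' and 48.4% of all windows. Among the 5 printed windows there were 2 matches in RBM26-AS1 and ZNF566-AS1, 1 in LPP-AS2 and ZEB1-AS1, and 0 in DIAPH3-AS1. The core holds a CG dinucleotide, so its share moves with base composition. CCAAT occurred in 30.6% of entering members' windows and 34.6% of all windows, and TATAAA in 6.94% and 11.5%, each on either strand. A match is only a run of letters in the window.

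The partner of a member was named on the array in 315 cases. Of the 254 members whose partner entered 137 entered themselves (53.9%), and of the 61 whose partner was under the entry level 18 did (29.5%). These 137 pairs involve 136 sense genes, since BABAM2, a gene of the BRCA1-A complex, has 2 entering members. BABAM2-AS1 was at 6.35 and 6.29, BABAM2-AS2 at 5.65 and 5.53, and BABAM2 at 8.41 and 8.15. All 3 were lower on the compound 1 array.

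Antisense and sense gene had the same sign in about as many pairs as they differed. Of the 136 partners 89 were lower on the compound 1 array (65.4%) and 45 higher, with a median of -0.055, and 1 was past 1.5-fold. The share lower is near the background, which was 57.2% over all measured genes and 69.1% over other genes at a mean level of 7.5 or more. Differences of antisense and sense gene had the same sign in 71 pairs and opposite signs in 62, and 4 pairs held a value of 0. In 45 pairs both were lower, in 26 both higher, in 44 the antisense gene was higher and the sense gene lower, and in 18 the reverse. Across the 137 pairs the differences correlated with r = 0.11, given as a description; all points come from the same 2 arrays and share their level trend. With quantile normalization r was 0.10 and with cyclic loess 0.098.

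Among the 22 pairs whose antisense gene had a mean level of 7 or more, 16 had the same sign, 12 of them with both genes lower. For these r was 0.34 (0.26 with quantile normalization, 0.25 with cyclic loess). Most genes at such levels were lower, 57.4% of other measured genes between 7 and 7.5 and 69.1% from 7.5 upward. The share of same-sign pairs that this trend alone would give was not worked out. By arrangement, 10 of the 13 divergent pairs had the same sign, against 18 of 33 with overlapping 5′ ends, 10 of 19 with overlapping 3′ ends and 13 of 24 with the antisense gene inside. Where the starts lie within 300 bases of each other 9 of 16 pairs had the same sign. The 75 members with such starts comprise 34 with overlapping 5′ ends, 32 divergent ones and 9 inside the partner. These subsets are small, and no test of a difference between them was made.

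**Figure D5:**
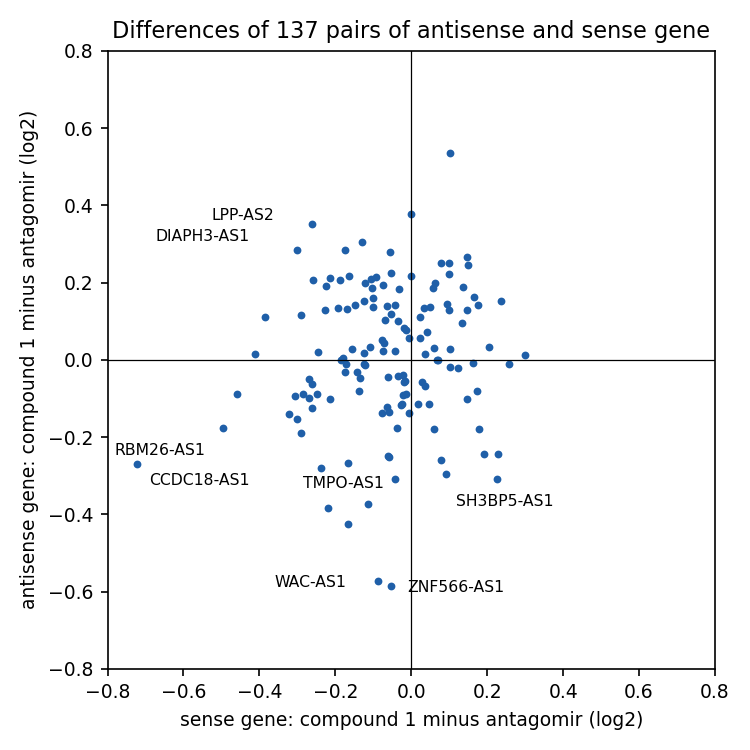
Difference of the antisense gene (y axis) against that of its sense partner (x axis) for the 137 pairs in which both entered, each as compound 1 minus antagomir in log2. Points left of the vertical line have a lower sense gene, and points above the horizontal line a higher antisense gene. The cloud shows little slope (r = 0.11), and CCDC18-AS1 lies farthest left.

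The largest partner differences were carried by sense genes whose antisense genes differed less. These pairs were picked for the size of the partner's difference, so a smaller one in the antisense gene follows in part from that choice. CCDC18, a coiled-coil gene, was at 7.20 and 6.48 (-0.72), and CCDC18-AS1 at 6.26 and 5.99 (-0.27). RBM26, an RNA-binding protein gene, was at 8.83 and 8.33, and RBM26-AS1, whose start lies within the window printed above, at 7.19 and 7.01. Both genes of these pairs were lower on the compound 1 array.

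For the next 3 partners the antisense gene was nearly level or higher. ADD3, which encodes an adducin of the membrane skeleton, was at 7.08 and 6.62, and ADD3-AS1 at 6.72 and 6.63. The zinc finger transcription factor gene MZF1 was at 7.498 and 7.09, and MZF1-AS1 at 6.11 and 6.12, a difference whose sign turned under each scaling. The cholesterol transfer protein gene STARD4 was at 7.63 and 7.25, and STARD4-AS1 at 5.65 and 5.76.

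The widest gaps between antisense and sense gene included 3 of the members whose windows are printed above. The naming rule picked the 5 widest gaps, and windows were printed only for members it picked. This overlap therefore follows from the choice of members and links no gap to close starts. LPP-AS2 was at 6.20 and 6.56 (0.35), while LPP, a LIM domain protein gene of focal adhesions, was at 6.73 and 6.47 (-0.26). DIAPH3-AS1 was at 6.29 and 6.57 (0.28), while DIAPH3, a formin gene, was at 9.68 and 9.38 (-0.30). ZNF566-AS1, given above with -0.58, stood beside ZNF566 at 6.31 and 6.25 (-0.05). Of the 5 members whose windows are printed above, ZEB1-AS1, RBM26-AS1 and ZNF566-AS1 thus have the sign of their partner, with gaps (antisense minus sense difference) of -0.02, 0.32 and -0.53. LPP-AS2 and DIAPH3-AS1 have the opposite sign, with gaps of 0.61 and 0.59.

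SH3BP5-AS1 had the pattern of LPP-AS2 turned around. It was at 6.04 and 5.73 (-0.31), while SH3BP5, which encodes a mitochondrial binding partner of the kinase JNK, was at 6.95 and 7.18 (0.23). The signs of both members held under the 3 scalings.

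Whether a cluster reads the antisense strand can be checked only in part from its number. The strand of a cluster is not given in the tables used here, but numbers on this array run in blocks. On each chromosome with at least 50 clusters of protein-coding genes of known strand, 1 boundary was placed. It was put where it best parted clusters of plus-strand genes (below it) from those of minus-strand genes (above it). Chromosome Y, and chromosome 8 with its 18 members, were left out. The 21 chromosomes with at least 90% of clusters on their own side were used, and there 96.8% of 9456 clusters were. Of 361 member clusters with known strand and block, 349 lay in the block of the antisense strand. The other 12, of 12 members, lay in that of the other strand. This split is near that of the protein-coding clusters, whose share on their own side ran from 93.0% to 100% by chromosome. A place in the other strand's block thus does not show that a cluster reads that strand. For 125 of 127 pairs with known blocks antisense and sense gene lay in different blocks.

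Of these 12 clusters 4 entered, and 3 of them gave a member its value. WEE2-AS1 and PRR34-AS1, and the members with several clusters other than HLA-F-AS1 and LOXL1-AS1, were picked after their values were seen. ZEB2-AS1 had a cluster at 6.79 and 6.93 in the block of ZEB2's strand, and another in its own block at 3.75 and 4.02. WEE2-AS1, beside a kinase gene of the oocyte, was at 6.91 and 7.10 in the other strand's block and at 4.37 and 4.13 in its own. PRR34-AS1 was at 6.32 and 6.24 in the other block and at 6.09 and 6.26 in its own. LOXL1-AS1 took its value from its own block, and its other cluster, at 6.46 and 6.30, was lower on the compound 1 array as well. Without the 12 clusters 229 members entered, with a median difference of 0.015.

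Of the 24 members with more than 1 cluster 6 had at least 2 that entered, and in 3 of them all these clusters had the same sign. PSMB8-AS1, beside an immunoproteasome gene, had 3 clusters with identical values (6.08 and 6.02), and HLA-F-AS1 had 4 at 7.14 and 7.21 besides the one at 8.18 and 8.09. The 2 values of HLA-F-AS1 thus differ in sign, -0.096 against 0.066. ASMTL-AS1 was lower in both of its clusters (-0.016 and -0.082), and C10orf95-AS1 was lower in 1 and higher in the other (-0.019 and 0.092).

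A list of RNA surveillance genes held the nuclear exosome, which degrades many antisense transcripts, its adaptors, and further decay and termination genes (XRN1, XRN2, DCP2, DXO and Integrator subunits). Of 33 listed genes 27 were measured, of which 21 were lower on the compound 1 array and 6 higher, with a median of -0.13, and 0 were past 1.5-fold. Quantile normalization and cyclic loess each gave 18 lower and 9 higher, with medians of -0.062 and -0.060. Over all measured genes the medians under these scalings were 0.0055 and -0.0033, and the share lower under them is not given here. Of the 27, 22 had a mean level of 7.5 or more. On the deposited values 69.1% of other genes at that level were lower, with a median of -0.073. The 11 exosome subunits were not planned as a list of their own. Of these, 10 were lower and 1 higher, also under quantile normalization and cyclic loess. Under these scalings EXOSC10 was nearly level, at -0.0007 and -0.0024, and EXOSC2 was at -0.020 and -0.014. The other lower subunits differed more. The exosome core gene EXOSC3 was at 7.86 and 7.52 (-0.34), and EXOSC6 at 9.19 and 8.87 (-0.32). The nuclear exonuclease gene XRN2 was at 9.44 and 9.14, the exosome helicase gene MTREX at 8.93 and 8.75, and EXOSC10, its nuclear catalytic subunit, at 10.59 and 10.52. TENT4B, a poly(A) polymerase gene that tags RNA for the exosome, was higher, at 8.34 and 8.72 (0.38).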

How the data were processed

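The authors deposited 1 log2 signal per transcript cluster for each of 2 arrays; log base, background correction and normalization were not given in the sources used here. The scale was read from the values. Of 53617 clusters 16098 had 1 gene symbol in the platform table, 0 had several and 37519 are unnamed here. Gene types and positions came from the RefSeq table for GRCh38.p14, and 0 symbols needed an update.

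A cluster entered when its higher value reached the 50th percentile of cluster mean levels, and a gene took its entering cluster with the highest mean. Differences are compound 1 minus antagomir. Each treatment has 1 array, so no test was made and precision is limited by the number of arrays; folds of 1.5, 1.3 and 2 served as margins. The members, gene lists and comparisons were chosen with earlier results of these data known. Named members were those past 1.5-fold, the 10 highest in level, a list of known antisense genes, the 5 pairs each with the largest partner difference and the widest gap, and entering members that share a sense gene. They number 43; others are said to be picked after their values were seen. The counting code was checked on simulated data with large planted differences and little noise, which does not test counts near the margins. Cyclic loess was run in limma 3.58.1 (R 4.3.3), all else in Python 3.11.15 (pandas 2.3.3, numpy 2.4.6, scipy 1.17.1, matplotlib 3.10.9).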

Additional observations from a re-analysis of the deposited data

How the results depend on the processing

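The members' median difference of 0.015 became -0.014 after centring and -0.068 when entry was set at the 75th percentile, where 37 members remained; their partners' median of -0.055 became -0.084 and -0.086, and 11 of 15 pairs then had the same sign. Members lower past 1.5-fold numbered 2 after centring and 1 each after quantile normalization and cyclic loess. With no filter on level all 480 members entered, with 12 higher and 5 lower past 1.5-fold. With entry at the 75th percentile, or with both arrays at the entry level, 0 were past it in either direction. At 1.3-fold 3 were higher and 9 lower, and at 2-fold 0 and 0. The causes were not tested. In the other alternatives of scaling, filter, cluster choice and shared values the members' median lay between 0 and 0.034, that of their partners between -0.057 and -0.031, and the share of pairs with the same sign between 48.2% and 54.7%; the members share 2 arrays, so these ranges are no measure of replicate error. Leaving out the clusters or pairs on the other strand's side, an alternative chosen after seeing the data, left 71 pairs with the same sign. Of single named members, 356 values moved by less than the robust SD of differences at their level and 1 by more. The latter was HLA-F-AS1, which went to 0.066 when its cluster of median difference was taken. Many of the 356 values could not move. A change of level filter leaves a member's difference as it was, and so does the choice of cluster where a member has a single cluster. Centring shifts every gene by the same amount. The count of 356 is thus no measure of how stable the values are. Among members past 1.5-fold 0 turned, and 11 smaller ones turned sign somewhere. No paired analysis was possible because there is 1 array for either treatment. Over genes, the robust SD was 0.28 in the bin of lowest level (of 20) and 0.10 in that of highest. Differences thus spread more widely over genes in the lowest bin than in the highest. Without replicates this spread does not measure the precision of any single gene's difference.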
